A study of Homo sapiens with 6 samples.

Results

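The integrin genes followed here were ITGB1, ITGA1, ITGA2, ITGA5, ITGAV, ITGB3, ITGB5, ITGB6 and ITGB8, together with ITGBL1, which codes for an integrin beta-like protein. These 10 genes were picked by symbol from the 58884 rows of the expression matrix, with the difference between the lines already known, so their differences are described and carry no test. RNA was sequenced from parental KYSE450 cells, a human esophageal squamous cell carcinoma line with wild-type NRF2, and from KEAP1null-KYSE450 cells, a monoclonal derivative in which CRISPR-Cas9 had disrupted exon 2 of KEAP1. Each line gave 3 libraries, and no treatment is named for any of the 6. KEAP1 is the adaptor that marks the transcription factor NRF2 for degradation, and NRF2 drives antioxidant and detoxification genes. Because the edited line is 1 clone, an effect of KEAP1 loss and a property of that clone cannot be told apart, and in bulk RNA fewer expressing cells and less RNA per cell cannot be told apart either. The labels do not say that the libraries came from separate cultures, so p-values measure the spread between these libraries only.

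Integrins are receptors made of an alpha and a beta chain that join the extracellular matrix to the actin cytoskeleton. The beta 1 chain pairs with many alpha chains, among them those of the collagen receptors (alpha 1 and alpha 2) and of the main fibronectin receptor (alpha 5), whereas alpha v pairs with the beta 1, 3, 5, 6 and 8 chains to bind ligands with an RGD motif, including latent TGF-beta. In squamous epithelium they anchor cells to the matrix and take part in cell migration. ITGBL1 resembles the cysteine-rich EGF-like repeats of a beta chain but lacks the transmembrane and cytoplasmic parts, so its product is secreted.

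In the 4 libraries whose reads could be recovered the depth lay between 53027359 and 61543442 reads, and the normalized counts, which are already scaled for depth, summed to between 54829313 and 57380170 in the 6 libraries. KEAP1 mRNA did not separate the lines (log2 fold change -0.02, adjusted p = 0.90, limma with Benjamini-Hochberg adjustment), whereas NQO1, a classical NRF2 target, averaged 16625 ± 817 in KYSE450 and 107758 ± 3247 in KEAP1null-KYSE450 (SD, n = 3; log2 fold change 2.70, adjusted p = 3.9e-10). All 7 squamous epithelial markers were abundant enough to test, and 1 passed as higher and 1 as lower. Their summed level lay between 253068 and 344451 normalized counts in KYSE450 and between 582450 and 725831 in KEAP1null-KYSE450. Such a sum follows the most abundant markers and does not show a rise of all 7. Of the 6 fibroblast markers 1 was abundant enough to test, and the list summed to between 622 and 853 normalized counts in KYSE450 and between 349 and 436 in KEAP1null-KYSE450, with COL1A2 and DCN at the limit of detection of 3 reads or below it in all libraries. Of the 4 endothelial markers 2 were tested and 1 passed as lower, the sums lay between 59.9 and 74.8 against between 48.0 and 70.6, and PECAM1 was at 0 in all libraries. None of the 4 leukocyte markers was abundant enough to test, their sums lay between 5.59 and 13.1 against between 4.61 and 21.2, and CD3E was at or below 3 reads throughout.

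ITGBL1 (ENSG00000198542) was expressed in KYSE450 and almost absent from KEAP1null-KYSE450. The gene occupies chr13:101452593-101720856 of hg38 on the plus strand, and its main transcript has 11 exons. It is shown with the 250 bases before its RefSeq start (GRCh38.p14, chr13:101452425-101452674, plus strand), because it was the member with the widest difference. Its main gencode transcript begins directly after this window, and other gencode transcripts begin earlier, so that the last 82 bases of the window, with the motif match, also lie in their exons. Capitals in this and the following promoter sequences mark matches to the motifs searched.
ITGBL1 promoter: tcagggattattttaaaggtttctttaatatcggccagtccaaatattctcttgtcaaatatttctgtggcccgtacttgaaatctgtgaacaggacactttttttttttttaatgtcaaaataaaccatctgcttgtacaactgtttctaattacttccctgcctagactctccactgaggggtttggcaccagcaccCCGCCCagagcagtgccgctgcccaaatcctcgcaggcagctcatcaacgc
The normalized counts of ITGBL1 in KYSE450 were 2118, 1741 and 1982, library by library, and those in KEAP1null-KYSE450 were 0, 7.14 and 0. The lines were separated by a wide gap, and all reads seen on the edited side, 7 in total, came from library 2. The mean was 1947 ± 191 in KYSE450 and 2.38 ± 4.12 in KEAP1null-KYSE450 (SD, n = 3), a ratio of 818 with a 95% Poisson interval of 397 to 2036 that covers the counting error of those 7 reads only. Without library 2, both remaining KEAP1null-KYSE450 libraries were at 0, and the level was at least 643-fold lower when they were set to the floor of 3 reads per library. The fitted log2 fold change was -9.91 (SE 0.62) with a pseudocount of 1 and ranged from -12.19 to -7.35 over the alternatives, since it depends on the pseudocount.

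**Figure D1:**
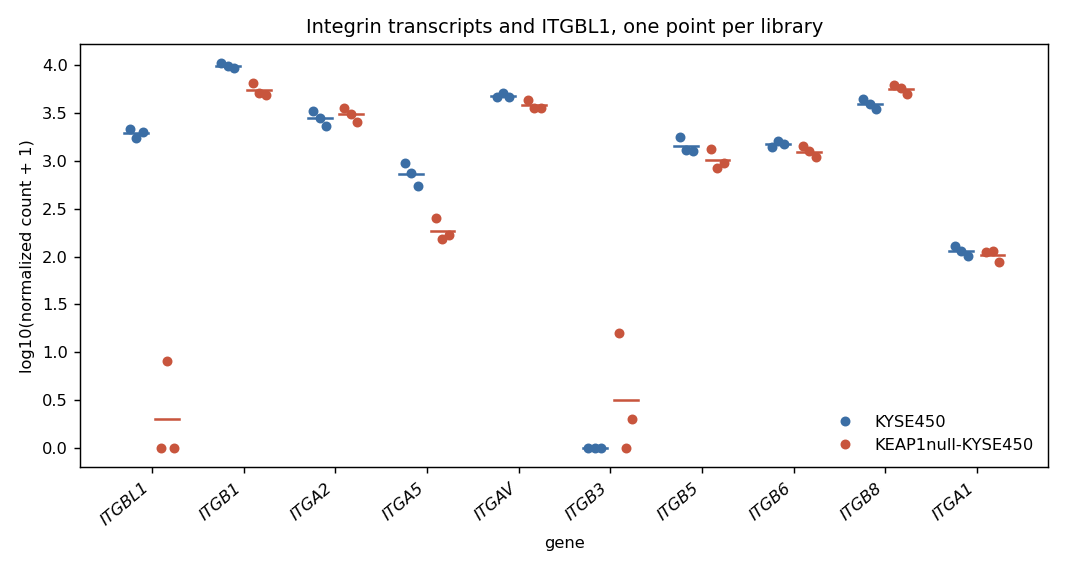
Normalized counts of the 10 genes on a log10 scale after adding 1, with 1 point per library and a bar at the mean of the logged values of each line. ITGBL1 stands between 1741 and 2118 normalized counts in KYSE450 and at or near 0 in KEAP1null-KYSE450, ITGA5 and ITGB1 are lower in all KEAP1null-KYSE450 libraries, ITGB8 is higher in all of them, and ITGB3 is at 0 in KYSE450.

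The beta 1 chain and the alpha chain of the fibronectin receptor were both lower in KEAP1null-KYSE450, whereas the alpha chains of the collagen receptors overlapped between the lines. ITGB1 (ENSG00000150093), the common beta chain of these receptors, lies at chr10:32887273-33005792 on the minus strand. Its first RefSeq start is preceded by the following 250 bases (GRCh38.p14, chr10:32958231-32958480, minus strand), shown because this window held the most motif types of all the members. The main gencode transcript begins directly after it, and 95 of its bases also lie in exons of other transcripts.
ITGB1 promoter: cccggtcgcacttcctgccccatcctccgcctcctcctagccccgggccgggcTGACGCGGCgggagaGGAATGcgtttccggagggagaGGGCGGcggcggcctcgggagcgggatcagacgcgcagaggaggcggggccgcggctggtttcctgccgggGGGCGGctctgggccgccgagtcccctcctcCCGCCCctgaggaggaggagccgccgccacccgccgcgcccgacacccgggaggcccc
ITGB1 stood at 10399, 9726 and 9188 normalized counts in KYSE450 and at 6470, 5142 and 4862 in KEAP1null-KYSE450. Every KEAP1null-KYSE450 library was below every KYSE450 library, and the mean was 43.8% lower (9771 ± 607 against 5491 ± 859, SD, n = 3). The log2 fold change was -0.84 (SE 0.11), short of the threshold of 1, and ranged from -0.96 to -0.66 over the alternatives.

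ITGA5 (ENSG00000161638), the alpha chain that forms the main fibronectin receptor with beta 1, lies at chr12:54395261-54419266 on the minus strand. Its promoter window (GRCh38.p14, chr12:54419267-54419516, minus strand) is given as that of the alpha chain with the widest difference among the members.
ITGA5 promoter: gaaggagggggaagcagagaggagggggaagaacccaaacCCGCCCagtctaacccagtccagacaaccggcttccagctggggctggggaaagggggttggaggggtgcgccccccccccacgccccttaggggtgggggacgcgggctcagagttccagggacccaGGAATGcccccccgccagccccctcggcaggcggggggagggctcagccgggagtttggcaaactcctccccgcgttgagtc
ITGA5 had 955, 739 and 537 normalized counts in KYSE450 and 252, 151 and 168 in KEAP1null-KYSE450. The lowest KYSE450 library lay above the highest KEAP1null-KYSE450 library, although the KYSE450 libraries differed among themselves. The mean was 74.4% lower, at 744 ± 209 against 190 ± 54.0 (SD, n = 3), with a log2 fold change of -1.96 (SE 0.23) and a range of -2.18 to -1.76 over the alternatives. FN1, the gene of the ligand fibronectin, was low in both lines, at 68.9 ± 24.7 and 95.1 ± 41.2 normalized counts, and did not pass the test (log2 fold change 0.43, adjusted p = 0.30, limma with Benjamini-Hochberg adjustment). It was singled out after its values had been seen.

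ITGA2 (ENSG00000164171, chr5:52989340-53094779, plus strand) codes for the alpha chain of a major epithelial collagen receptor. Its normalized counts were 3318, 2775 and 2322 in KYSE450 and 3565, 3090 and 2542 in KEAP1null-KYSE450. The ranges overlapped broadly, and the log2 fold change was 0.13 (SE 0.14). ITGA1 (ENSG00000213949), which codes for the alpha chain of another collagen receptor, lies beside it at chr5:52787916-52959209 on the same strand. ITGA1 had 127, 114 and 101 normalized counts in KYSE450 and 111, 114 and 86.8 in KEAP1null-KYSE450. These ranges also overlapped, the log2 fold change was -0.14 (SE 0.22), and its sign changed over the alternatives, which ran from -0.48 to 0.02. PELO, a gene of ribosome rescue, lies within ITGA1 on the same strand with a mean of 1937 normalized counts, so reads from shared sequence could belong to either. How such reads were counted is not given in the sources used here.

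Alpha v and its partners ITGB5, ITGB6 and ITGB8 differed less than ITGB1 and ITGA5, and not all in the same direction. ITGAV (ENSG00000138448, chr2:186590010-186680901, plus strand), which codes for alpha v itself, had 4610, 5119 and 4605 normalized counts in KYSE450 and 4334, 3560 and 3566 in KEAP1null-KYSE450. The groups were adjacent without overlapping, and the log2 fold change was -0.33 (SE 0.10). ITGB5 (ENSG00000082781, chr3:124761948-124901418, minus strand), whose product with alpha v is a vitronectin receptor, had 1778, 1294 and 1261 normalized counts against 1318, 848 and 935. The highest KEAP1null-KYSE450 library lay within the KYSE450 range, and the log2 fold change was -0.49 (SE 0.17). ITGB6 (ENSG00000115221, chr2:160099667-160200313, minus strand) codes for an epithelial beta chain whose heterodimer with alpha v releases active TGF-beta. Its normalized counts of 1388, 1610 and 1495 in KYSE450 and 1408, 1264 and 1087 in KEAP1null-KYSE450 overlapped, with a log2 fold change of -0.26 (SE 0.12).

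ITGB8 (ENSG00000105855, chr7:20330702-20415754, plus strand), whose product also binds latent TGF-beta with alpha v, was the member whose KEAP1null-KYSE450 libraries all lay above the KYSE450 libraries. The 250 bases before its RefSeq start (GRCh38.p14, chr7:20330650-20330899, plus strand) are shown as the counterpart to those of the lower genes. The main gencode transcript begins directly after them, and the last 198 bases, with the later GC box, also lie in an exon of another transcript that begins earlier.
ITGB8 promoter: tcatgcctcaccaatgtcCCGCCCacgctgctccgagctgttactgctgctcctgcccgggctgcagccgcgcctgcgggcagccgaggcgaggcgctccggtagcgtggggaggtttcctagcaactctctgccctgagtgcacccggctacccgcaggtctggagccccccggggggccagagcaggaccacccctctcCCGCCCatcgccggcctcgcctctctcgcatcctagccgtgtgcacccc
ITGB8 had 4412, 3945 and 3450 normalized counts in KYSE450 and 6119, 5686 and 4915 in KEAP1null-KYSE450. The groups did not overlap, the mean was 41.6% higher, and the log2 fold change was 0.50 (SE 0.11) with a range of 0.41 to 0.65 over the alternatives. An antisense transcript, AC004130.1, overlaps ITGB8 at a mean of 98.1 normalized counts with a log2 fold change of 1.16, and the counting strand was not given in the sources used here, so reads from the overlap could belong to either.

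ITGB3 (ENSG00000259207, chr17:47253827-47313743, plus strand) codes for the beta chain of the classical vitronectin receptor. It was at 0 normalized counts in all 3 KYSE450 libraries, and at 14.8, 0 and 1.01 in KEAP1null-KYSE450. The signal came almost entirely from library 1, with 16 reads, and without that library both lines were at or below the floor of 3 reads. The mean of 2.63 over all libraries was under the minimum of 10 for the fit, so no fold change was computed.

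Scaled by length, the beta chains that can pair with alpha v differed in their proportions between the lines, mainly for ITGB1 and ITGB8. Each normalized count was divided by the summed exon length of the gene, and the share of each chain in the total of the 5 was taken within each library. ITGB1 held 47.6% ± 0.55 in KYSE450 and 33.6% ± 0.76 in KEAP1null-KYSE450 (SD, n = 3), without overlap. ITGB8 held 18.4% ± 0.92 and 32.9% ± 1.85, also without overlap. The shares of ITGB5 (15.6% ± 2.06 and 14.1% ± 1.80) and ITGB6 (18.4% ± 2.29 and 19.3% ± 0.82) overlapped between the lines. With the length of the main transcript the levels differed but ITGB1 and ITGB8 kept their direction, from 70.7% to 56.6% and from 11.8% to 24.0%. On that length ITGB6 no longer overlapped, at 8.76% ± 1.07 and 10.4% ± 0.51. When ITGB1 was left out, because it also pairs with other alpha chains, ITGB8 held 35.0% ± 1.38 of the other 4 chains in KYSE450 and 49.6% ± 2.21 in KEAP1null-KYSE450. These shares are of mRNA and do not measure heterodimers.

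**Figure D2:**
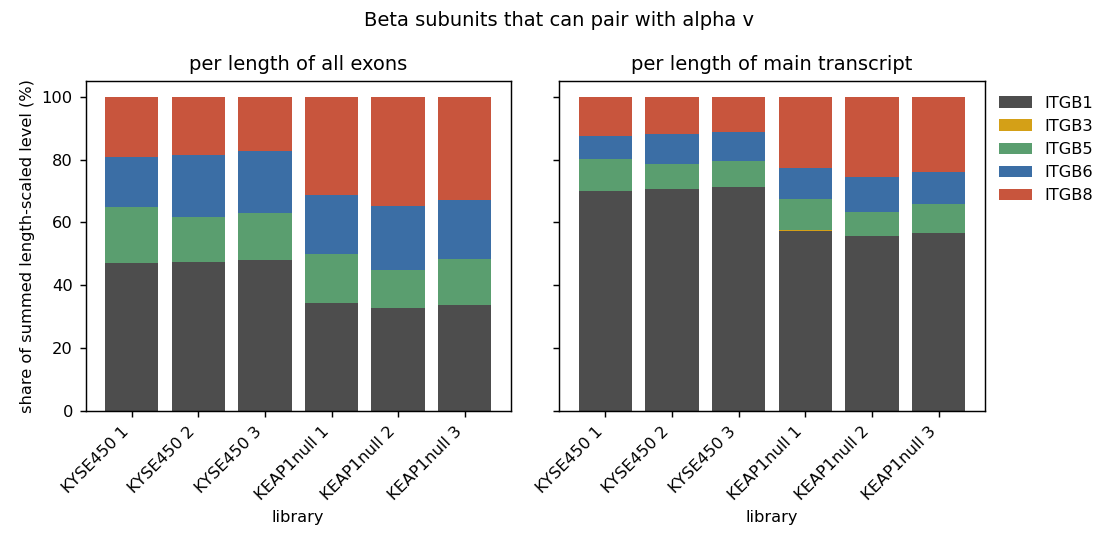
Share (%) of each beta chain in the summed length-scaled level of ITGB1, ITGB3, ITGB5, ITGB6 and ITGB8, with 1 bar per library, scaled by the length of all exons (left) or of the main transcript (right). The ITGB1 segment is smaller and the ITGB8 segment larger in all 3 KEAP1null-KYSE450 libraries under either length.

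On the scale of normalized counts per kb of exon, ITGB1 was the highest member in KYSE450 at 671 ± 41.7 (SD, n = 3) and did not overlap with ITGA2, the next at 355 ± 63.1. ITGBL1 followed at 315 ± 30.9, then ITGB8 (260 ± 31.7), ITGB6 (259 ± 19.2), ITGAV (247 ± 15.3) and ITGB5 (222 ± 44.4), and each neighbour from ITGA2 to ITGB5 overlapped with the next. ITGA5 (101 ± 28.3) and ITGA1 (6.15 ± 0.72) were each separated from the gene above. In KEAP1null-KYSE450, ITGA2 (388 ± 64.8), ITGB1 (377 ± 59.0) and ITGB8 (368 ± 40.2) overlapped at the top, above ITGB6 (217 ± 27.8), ITGAV (198 ± 23.0) and ITGB5 (159 ± 38.3). ITGA5 (25.8 ± 7.31) and ITGA1 (5.60 ± 0.81) came next, and ITGBL1 was at the bottom with ITGB3. The order depends on which length is used: with the main transcript ITGB1 was the highest member in both lines, and ITGBL1 moved ahead of ITGA2 in KYSE450.

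Of the 10 genes, 9 were abundant enough for the fit and ITGB3 was not. ITGBL1 and ITGA5 were lower past both thresholds (an adjusted p below 0.05 and at least 1 log2 unit between the lines), a direction in which 5.98% of the 16701 tested genes passed, and 0 members were higher past them, where 12.2% of the tested genes passed (18.2% in either direction). Since these genes were chosen on this contrast, nothing is read from those counts. Without overlap between the lines, 4 members were lower (ITGBL1, ITGB1, ITGA5 and ITGAV) and 1 was higher (ITGB8), beside 29.3% and 28.4% of all tested genes. The median log2 fold change of the 9 was -0.33, beside 0.004 over all tested genes, and lay between -0.45 and -0.19 over the alternatives. Library 1 was the highest of its line in both lines for 5 of the 9 (ITGB1, ITGA2, ITGA5, ITGB5 and ITGB8), beside 27.1% of all tested genes. With the tested genes ordered by exon length and split into 4 equal groups, that share was 9.33% in the shortest group and 42.3% in the longest. Without library 1 of each line, ITGBL1 and ITGA5 were again the 2 members past both thresholds. In that fit the log2 fold changes of ITGB1, ITGAV, ITGB5, ITGB6 and ITGB8 were -0.92, -0.45, -0.52, -0.40 and 0.52. Those of ITGA2 and ITGA1 were 0.14 and -0.11. Why library 1 stood highest was not tested.

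**Figure D3:**
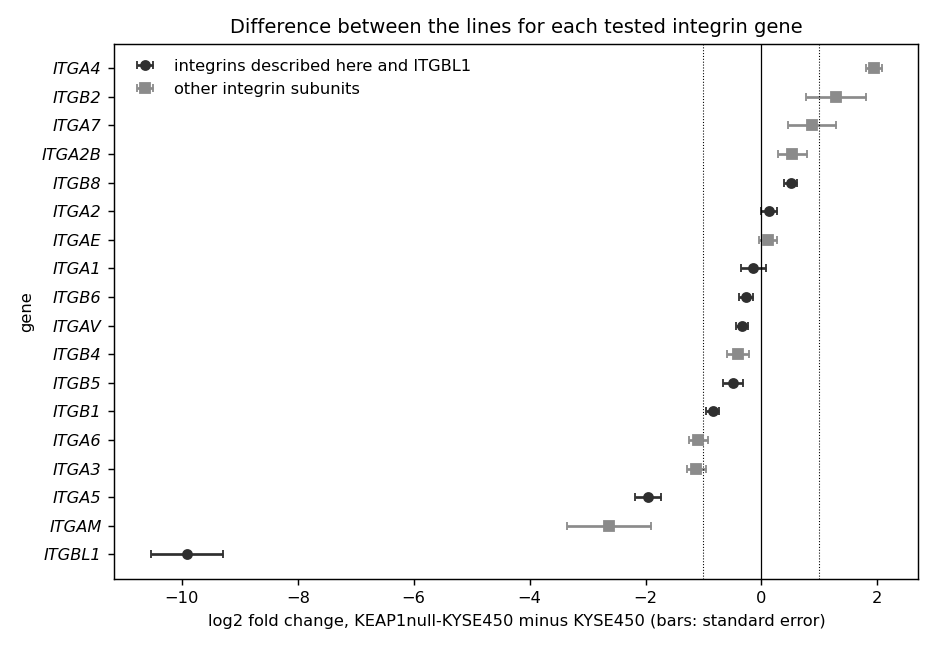
Log2 fold change of KEAP1null-KYSE450 over KYSE450 for the tested integrin genes, with bars for the standard error and dotted lines at -1 and 1. Circles are the 9 tested genes described above and squares the other integrin subunits; ITGBL1 lies at -9.91, and the circles of ITGAV and the 4 tested beta chains described above lie between -0.84 and 0.50.

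The remaining integrin subunits were taken from a list of 17, of which 9 were tested, 1 rose, 3 fell and 5 did not pass, or 11.1% higher and 33.3% lower beside 12.2% and 5.98% of all tested genes. ITGA4, the alpha chain of a receptor for fibronectin and VCAM1, rose from 1152 ± 128 to 4459 ± 879 normalized counts (SD, n = 3; log2 fold change 1.94, SE 0.14, adjusted p = 3.0e-07, limma with Benjamini-Hochberg adjustment). ITGA3 and ITGA6 code for alpha chains of laminin receptors. ITGA3 fell from 4847 ± 1141 to 2210 ± 411 (log2 fold change -1.12, SE 0.16, adjusted p = 1.1e-04) and ITGA6 from 7638 ± 1517 to 3623 ± 931 (log2 fold change -1.09, SE 0.17, adjusted p = 2.0e-04). Without KYSE450 library 1 their log2 fold changes were -0.94 and -0.93, and 0 of the listed subunits passed both thresholds as lower, with ITGAM (below) under the minimum mean and not tested. Without library 1 of both lines they were -1.09 and -1.13, and 3 of the listed subunits passed as lower. With quantile normalization neither ITGA3 nor ITGA6 kept the fold threshold (-0.997 and -0.92). ITGA6 also missed it without KEAP1null-KYSE450 library 3 (-0.94) and in edgeR on the recovered reads (-0.97). ITGB4, the beta chain that joins alpha 6 in the hemidesmosome, had a log2 fold change of -0.40 (adjusted p = 0.10). ITGAM, a leukocyte subunit, passed as lower from 22.0 ± 12.0 to 2.55 ± 1.86 normalized counts (log2 fold change -2.63, SE 0.72, adjusted p = 0.0092), a fold that depends on the pseudocount because the KEAP1null-KYSE450 libraries lie around the floor of 3 reads. ITGB2, ITGA7, ITGA2B and ITGAE did not pass, with log2 fold changes of 1.29, 0.87, 0.53 and 0.11 (adjusted p = 0.055, 0.096, 0.095 and 0.58, limma with Benjamini-Hochberg adjustment). ITGB2 passed without KEAP1null-KYSE450 library 2 (1.61) and ITGA7 without KYSE450 library 2 (1.38).

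Among 30 genes of integrin ligands, 24 were tested, and 3 rose and 7 fell, which is 12.5% and 29.2% of those tested beside 12.2% and 5.98% of all tested genes. Their median log2 fold change was -0.35. SPP1, which codes for osteopontin, an RGD-containing glycoprotein bound by alpha v and alpha 4 integrins, rose from 176 ± 38.1 to 114855 ± 4904 normalized counts (log2 fold change 9.37, SE 0.14, adjusted p = 4.6e-14, limma with Benjamini-Hochberg adjustment). NPNT, the gene of the basement membrane ligand nephronectin, and CTGF, a matricellular protein, also rose, with log2 fold changes of 1.46 and 1.31. TNC fell from 304 ± 91.9 to 26.5 ± 8.36 normalized counts (log2 fold change -3.47, SE 0.29, adjusted p = 1.3e-06). TNC codes for the matrix glycoprotein tenascin-C. LAMC1, the gamma 1 chain of laminins, and EDIL3, an RGD-containing ligand of alpha v integrins, fell with log2 fold changes of -1.83 and -1.44. The other 4 that fell, named after their values were seen, were the basement membrane genes COL4A1, COL4A2 and NID1 and the matricellular gene CYR61, with log2 fold changes of -1.44, -1.38, -1.05 and -1.30.

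Genes that act beside or below the receptors varied by class. Of 15 lateral partners (tetraspanins, syndecans, CD47 and other membrane proteins that associate with integrins), 14 were tested. Past both thresholds 0 rose and 7 fell, which is 0% and 50% beside 12.2% and 5.98% of all tested genes. Without the fold threshold, 13 of the 14 were lower at an adjusted p under 0.05, beside 25.5% of all tested genes. The median log2 fold change of the lateral partners was -0.98. The largest were NRP2, a neuropilin co-receptor, from 3455 ± 676 to 336 ± 78.6 normalized counts (SD, n = 3; log2 fold change -3.36), PLAUR, the urokinase receptor, from 255 ± 28.6 to 38.0 ± 7.81 (log2 fold change -2.73), and SDC4, a syndecan of focal adhesions, from 2164 ± 125 to 654 ± 106 (log2 fold change -1.74). Those 3 had adjusted p-values of 1.0e-08, 1.5e-06 and 3.3e-07 (limma with Benjamini-Hochberg adjustment). CD47, BSG, SLC3A2 and CD151 made up the other 4, named after their values were seen, with log2 fold changes between -1.32 and -1.07.

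Of 39 adhesion adaptors and kinases, 37 were tested, 4 rose and 3 fell, with a median log2 fold change of -0.22. These shares of 10.8% and 8.11% were near those of all tested genes, 12.2% and 5.98%. Without the fold threshold, 13 of the 37 were lower and 7 higher at an adjusted p under 0.05 (limma with Benjamini-Hochberg adjustment). Over all tested genes those shares were 25.5% and 24.3%. TNS1, LPXN and TGFB1I1 rose, with log2 fold changes of 3.34, 2.12 and 1.74. TNS1 codes for a tensin that binds beta chain tails, and LPXN and TGFB1I1 for relatives of paxillin. All 3 were low in KYSE450, at 4.17 ± 3.94, 28.8 ± 13.6 and 46.4 ± 16.0 normalized counts, so that the fold of TNS1 rests on values near the floor. TLN2, a talin, was the other gene that rose, with a log2 fold change of 1.34, and was named after its value was seen. NEDD9, a scaffold of focal adhesion kinase signalling, fell from 1901 ± 213 to 484 ± 25.1 (log2 fold change -1.97, adjusted p = 5.5e-08, limma with Benjamini-Hochberg adjustment). FLNA, which codes for an actin crosslinker, fell with a log2 fold change of -1.46. Among 16 genes of integrin trafficking, all tested, 1 rose and 1 fell (6.25% each), a share of higher genes under that of all tested genes and a share of lower genes near it. These were DAB2, a clathrin adaptor for integrins (log2 fold change 1.28), and SWAP70, an actin-binding protein (log2 fold change -1.09). With quantile normalization both missed the fold threshold (0.84 and -0.91), as did SWAP70 without KYSE450 library 1 (-0.99). Their median was -0.09.

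**Figure D4:**
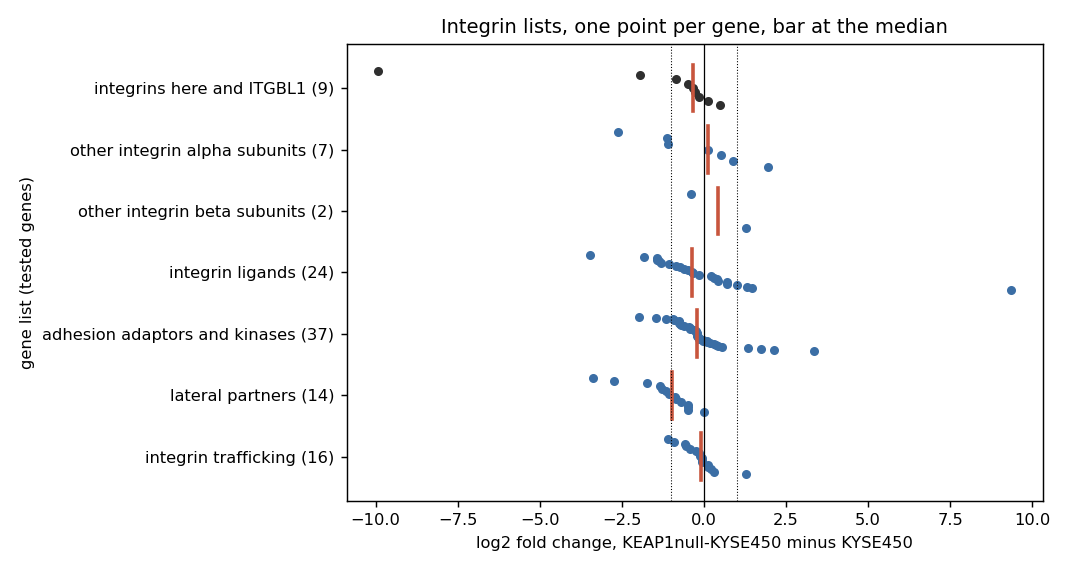
Log2 fold change of each tested gene by list, with a bar at the median of the list and dotted lines at -1 and 1. The number of tested genes stands in parentheses; the lateral partners have the lowest median, at -0.98, and SPP1 is the point at 9.37 among the ligands.

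The genes beside the members on their chromosomes had, when pooled, a median log2 fold change near that of all tested genes. Taking 10 tested genes on either side of each member, the medians by member lay between -0.17 and 0.33. The pooled neighbours were 183 genes with a median of 0.05. Past both thresholds 21 (11.5%) of them were higher and 16 (8.74%) lower, beside 12.2% and 5.98% of all tested genes. Among 20 neighbours each, ITGA5 had 4 lower and 2 higher, and ITGB1 had 1 lower and 5 higher. ITGBL1 had 5 lower and 1 higher among its 20 neighbours, a share of lower genes above that of all tested genes, with a median of -0.07. The nearest tested gene before it was NALCN, which codes for the sodium leak channel and lies on the opposite strand at a distance of 36.1 kb (ENSG00000102452, chr13:101053776-101416508). NALCN had 243, 197 and 219 normalized counts in KYSE450 and 0, 0 and 5.04 in KEAP1null-KYSE450. It was separated between the lines as ITGBL1 was, with a log2 fold change of -6.92 (SE 0.63, adjusted p = 2.6e-06, limma with Benjamini-Hochberg adjustment) that ran from -10.86 to -4.32 over the alternatives. The nearest tested gene after ITGBL1, TPP2, which codes for a peptidase, lies 876 kb away and had a log2 fold change of -0.41 (SE 0.10).

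**Figure D5:**
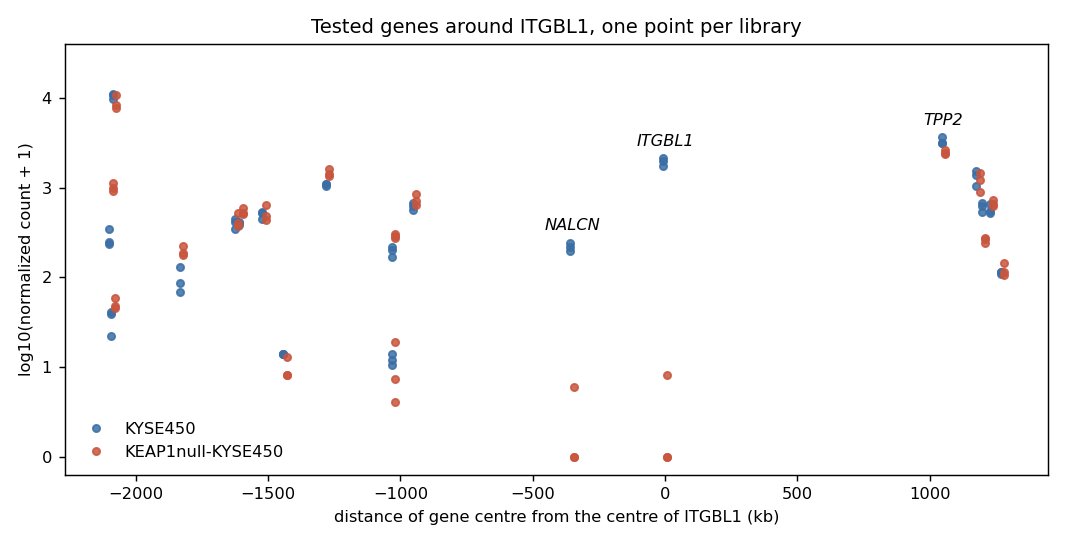
Normalized counts on a log10 scale after adding 1 for the tested genes around ITGBL1, against the distance of each gene's centre from that of ITGBL1 (kb), with 1 point per library. NALCN and ITGBL1 are at or near 0 in KEAP1null-KYSE450, and TPP2 and the genes farther away are expressed in both lines.

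The 5 tested genes whose centred log2 profile over the 6 libraries lay closest to that of ITGBL1, by Euclidean distance, were MMP13 (0.94), CCDC91 (2.12), CDH13 (2.47), KMO (3.69) and KRT86 (3.87). MMP13, which codes for a collagenase, had 2601, 2396 and 2749 normalized counts in KYSE450 and 0, 6.12 and 1.01 in KEAP1null-KYSE450. Like ITGBL1, it was abundant in every KYSE450 library and at or near the floor in KEAP1null-KYSE450. CDH13, the gene of T-cadherin, averaged 2401 ± 150 and 0.98 ± 0.05 normalized counts (SD, n = 3). KMO, an enzyme of kynurenine breakdown, averaged 209 ± 39.6 in KYSE450 and was at 0 in all KEAP1null-KYSE450 libraries. Likeness over 6 libraries in 2 groups mostly reflects the size of the difference between the lines.

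RefSeq gave a promoter window of 250 bases for 9 of the 10 members, in 13 windows, and ITGB3 was not matched. The windows were searched on both strands for the antioxidant response element core TGACNNNGC, which NRF2 binds, the AP-1 motif TGANTCA, the TEAD motif GGAATG and the GC box GGGCGG, which occur in 10.9%, 6.57%, 11.9% and 42.6% of all 35116 windows. A stretch can match both the response element core and the AP-1 motif, but none did in the members' windows. In the printed ITGB1 window the response element core began 197 bases before the start, as TGACGCGGC, with a TEAD match at 182 bases and GC boxes at 160, 89 and 58. ITGA5 had a TEAD match at 82 bases and a GC box at 210. ITGB8 held GC boxes at 232 and 49 bases, and ITGBL1 a GC box at 51. ITGBL1 was the poorest in G and C of the 4 printed windows at 44%, against 70% for ITGA5, 71.2% for ITGB8, 78.4% for ITGB1 and a median of 58% over all windows. The response element core also occurred in a window of ITGB5, at 207 bases, and in that of ITGA1, at 98 bases on the other strand, whereas the AP-1 motif was not matched in these windows of the members. A match describes letters and does not show binding.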

How the data were processed

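RNA of KYSE450 and KEAP1null-KYSE450 cells was sequenced in 3 libraries each. Per the labels, the submitters' processing notes name FastQC 0.11.5, cutadapt 1.12, STAR 2.6.90c and featureCounts 1.5.1, with the builds hg38 and mm10. The values the authors deposited are normalized counts, which is a signal for each gene scaled for the depth of its library. Every value is a whole multiple of what 1 read is worth in its library. In 4 libraries this gave the reads (100% of values whole within 0.1 reads, 53027359 to 61543442 reads). In the other 2 the step was too near 1 to accept. The floor of 3 reads is 2.77 to 3.21 normalized counts, and covers counting error only. The columns carry no replicate number, and libraries are numbered in column order. Where a symbol had several rows, the one with the highest mean was used. The methods name a RefSeq annotation, whereas the rows carry Ensembl identifiers, and the aligned annotation's version is not given in the sources used here.

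The difference was fitted across all genes with a mean of at least 10 by limma 3.58.1 (R 4.3.3; lmFit, eBayes with trend, two-sided, Benjamini-Hochberg adjustment) on normalized counts taken to log2 after adding a pseudocount of 1, and tried on simulated data. Folds are on that scale and are understated for low genes. In the simulated data the changes were larger than the fold threshold and were not placed in the lowest genes. Recovery of changes in low genes or near the threshold was therefore not tried. Positions and lengths came from gencode v44 (hg38), and promoters from RefSeq. Named were the members, every other tested integrin subunit, the 3 largest changes per direction in each list (1 of these genes is not reported here), KEAP1, NQO1, the nearest tested genes beside ITGBL1 and the 5 closest profiles. The members and lists were chosen with earlier results of these data known. The fit was repeated with a pseudocount of 0.1 or 10, without the filter, with a minimum mean of 100, after rescaling, with quantile normalization, with eBayes without trend, with each library left out, and, on the recovered reads of 4 libraries, edgeR 4.0.16 and DESeq2 1.42.0. Leaving out library 1 of each line was added after the data were seen.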

Additional observations from a re-analysis of the deposited data

How the results depend on the processing

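No paired analysis was possible because the columns carry no replicate number. Over 16 alternatives the counts of members past both thresholds stayed at 2 lower and 0 higher. Nothing is read from this either, since the members were chosen on this contrast. With a mean of at least 100, 875 genes were higher (2045 in the fit as reported), which was 56.2% of the genes past both thresholds instead of 67.2%, and 5 pathway genes were higher instead of 9, as fewer genes were tested. With quantile normalization the split was 51.8%, from 1388 higher and 1289 lower genes, and 1 other integrin subunit was lower instead of 3. Without a trend in eBayes 2 other integrin subunits were higher instead of 1. With each library left out in turn between 1 and 2 were higher and between 0 and 3 lower. The number of lower subunits was 0 without KYSE450 library 1 and 3 without library 1 of both lines. The cause was not tested. Among the genes for which the alternatives were run, none past both thresholds changed its direction, whereas ITGA1, ITGAE, KEAP1 and the median of the genes beside the members, all near 0, changed sign under some alternatives. With the length of the main transcript, the shares in KYSE450 and KEAP1null-KYSE450 were 70.7% and 56.6% for ITGB1, 8.74% and 8.91% for ITGB5, 8.76% and 10.4% for ITGB6, and 11.8% and 24.0% for ITGB8. Of the smaller differences, ITGB6 ranged from -0.40 to -0.08, ITGAV from -0.45 to -0.17, ITGB5 from -0.68 to -0.33 and ITGA2 from 0.00 to 0.28 on the log2 scale. Depth limits ITGB3 in both lines and ITGBL1 in KEAP1null-KYSE450, which lie around the floor of 3 reads. With 3 libraries of 1 clone, the p-values describe these libraries.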
